A study of Mus musculus with 28 samples.

Results

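Fibroblasts in which *Postn*, *Tnc* and *Cthrc1* together held at least 0.2% of the UMIs, although many carried only 1 or 2 of the 3, made up 582 of the 16893 cell barcodes kept from single-cell RNA sequencing of mouse jugular veins and of arteriovenous fistulas (AVFs) between the jugular vein and the carotid artery. A barcode stands for 1 droplet, in most cases 1 cell, and a unique molecular identifier (UMI) marks 1 captured RNA molecule. A barcode was kept with 200 to 6000 genes and at most 10% of its UMIs from mitochondrial genes. It was counted here when the collagen and proteoglycan genes *Col1a1*, *Col1a2*, *Col3a1* and *Dcn* held at least 1.5% of its UMIs, the smooth muscle genes *Acta2*, *Tagln*, *Myh11* and *Myl9* under 1%, the macrophage genes *Lyz2*, *C1qa* and *C1qb* under 0.5%, *Postn*, *Tnc* and *Cthrc1* together at least 0.2%, and *Thbs4*, *Cilp*, *Comp* and *C1qtnf3* together under 0.1%. These cells are called activated fibroblasts below, after the genes that chose them. Of the 582, 10 were in the contralateral library, 372 in the early AVF library and 200 in the late AVF library.

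All samples came from male and female C57BL/6 mice that had undergone 5/6 nephrectomy and, weeks later, AVF surgery, and the controls were jugular veins from the unoperated side of such mice. Single-cell libraries were made from pools of 10 vessels of both sexes, 1 library for the contralateral veins and 1 each for early and late AVFs, and their labels give no day. Bulk RNA sequencing used single vessels from other mice: 7 contralateral veins (5 female, 2 male), 8 early AVFs at day 3 (3 female, 5 male), 5 mid AVFs at day 10 (3 female, 2 male) and 5 late AVFs at day 21 (3 female, 2 male). With 1 pool per condition the single-cell data allow no test, so levels there are given as the UMIs of a gene among all UMIs of a class, in UMI-per-million (UPM), with exact 95% intervals that cover counting error only, and tests were made in the bulk vessels alone.

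Fibroblasts build and maintain the collagen scaffold of the vessel wall. After injury some of them turn from a quiescent state, marked by genes such as *Gsn*, *Gdf10* and *Inmt*, to an activated one that secretes matrix. Periostin (*Postn*) is a matricellular protein that binds collagen and promotes its cross-linking, tenascin C (*Tnc*) is a glycoprotein of the matrix that is deposited in healing tissue, and *Cthrc1* encodes a secreted protein with a short collagen repeat that marks matrix-producing fibroblasts in several injured organs. *Col1a1* encodes the main chain of type I collagen. *Thbs4*, *Cilp* and *Comp* encode matrix proteins of tendon and cartilage and mark another matrix-producing fibroblast state, here called Thbs4-type fibroblasts.

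Depth differed between the single-cell libraries. The median kept barcode held 2751 UMIs in the contralateral, 8951 in the early and 15425 in the late library, and activated fibroblasts held 11889, 21085.5 and 30510.5. At most 6 barcode sequences were shared between any pair of libraries. Scrublet, a doublet caller, marked 0, 2 and 120 barcodes, and no barcode was removed. With so few calls in the contralateral and early libraries, doublets there remain unassessed. Bulk libraries held 20254173 to 36879746 counts, except 2 early AVFs (replicates 5 and 6) at 67457501 and 53097813.

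Activated fibroblasts were the largest class of collagen-rich barcodes in the early library and a small class in the others. They made up 0.589% of collagen-rich barcodes in the contralateral library (10 of 1698, exact binomial 95% interval 0.283 to 1.08%), 58.1% in the early library (372 of 640, 54.2 to 62.0%) and 9.50% in the late library (200 of 2106, 8.28 to 10.8%). Other fibroblasts, which met the same conditions but fell short of 0.2% for the 3 genes, were 98.3%, 27.3% and 71.9% of the same barcodes. Thbs4-type fibroblasts, over 0.1% for *Thbs4*, *Cilp*, *Comp* and *C1qtnf3*, were 1.06%, 11.9% and 17.1%. As a share of all kept barcodes, activated fibroblasts were 0.158% (0.0759 to 0.291%), 7.83% (7.08 to 8.63%) and 3.44% (2.98 to 3.94%). Among kept barcodes this order of early over late depended on the limit: at 0.1% in place of 0.2% the shares were 9.615% (early) and 10.4% (late). After thinning each barcode to 1000 UMIs the order held but the shares came closer, at 7.62% and 6.52% of kept barcodes. These shares describe 3 pools, in which losses during digestion and droplet capture cannot be told apart from differences in the vessels.

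**Figure D1:**
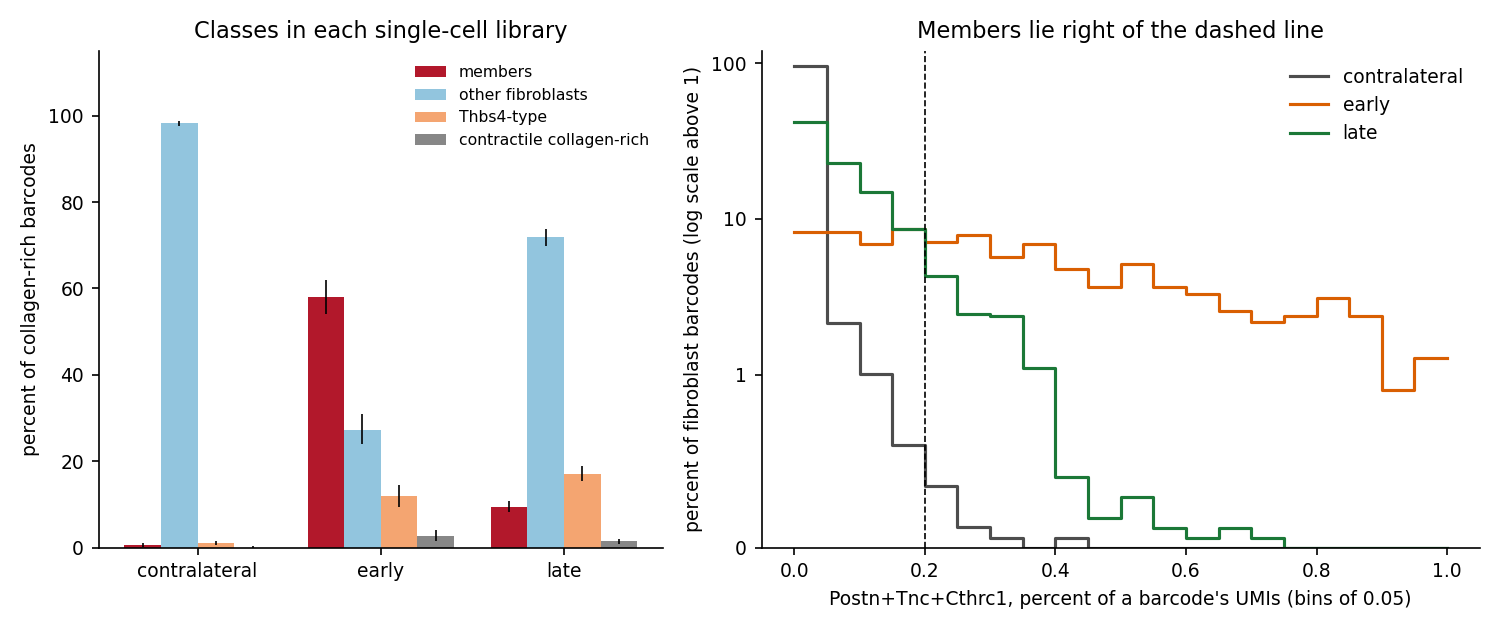
Left, percent of collagen-rich barcodes in each of 4 classes in the 3 single-cell libraries, with exact binomial 95% intervals as error bars; activated fibroblasts ("members") were 0.589, 58.1 and 9.50%. Right, percent of fibroblast barcodes (members and other fibroblasts) by the summed share of *Postn*, *Tnc* and *Cthrc1* in bins of 0.05 percentage points, on an axis that is logarithmic above 1; the dashed line at 0.2% is the limit for members, and the early library has the longest tail to its right.

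The limit of 0.2% ran through a continuous distribution. Just inside it lay barcodes at 0.2075%, 0.2009% and 0.2005% in the contralateral, early and late libraries, and just outside barcodes at 0.1957%, 0.1988% and 0.1997%. Of the late activated fibroblasts 74 of 200 lay between 0.2 and 0.25%, of the early ones 39 of 372, and of the contralateral ones 6 of 10. The median share of the 3 genes was 0.473% in early activated fibroblasts (quartiles 0.322 and 0.706%) and 0.278% in late ones (quartiles 0.229 and 0.333%). At 0.4% or more lay 221 early cells (59.4%), 24 late cells (12.0%) and 1 contralateral cell. Early cells thus sat well above the limit and most late cells sat near it.

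The limit of 6000 genes removed many barcodes that met every other condition: 456 in the early, 101 in the late and 0 in the contralateral library. With them included, activated fibroblasts were 828 barcodes (14.8% of 5591) in the early and 301 (4.70% of 6409) in the late library. Barcodes over the limit held a median of 56088 UMIs (early) and 55832 (late), and markers of another cell type reached 1% of UMIs in 3 of 456 and 1 of 101 of them, against 16 of 372 and 3 of 200 below the limit. In the late library the barcodes over the limit carried *Cthrc1* at 573 against 236 UPM below it, *Tnc* at 375 against 142, the collagen VIII chain *Col8a1* at 448 against 120 and *Gsn* at 1426 against 3618. In the early library *Cthrc1* was 1269 against 1135, *Tnc* 599.7 against 358 and *Gsn* 280 against 401. Whether these barcodes were doublets was not tested.

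*Postn* carried most of the rule, and *Tnc* and *Cthrc1* separated the libraries. *Postn* held 98.8% of the UMIs of the 3 genes in contralateral, 73.2% in early and 88.2% in late activated fibroblasts. *Tnc* held 0%, 6.42% and 4.40%, and *Cthrc1* 1.18%, 20.4% and 7.35%. *Postn* was at 2346 UPM in contralateral, 4081 in early and 2838 in late activated fibroblasts. *Tnc* was at 358 in early and 142 in late cells, and 0 of 107424 UMIs in contralateral cells, which allows a level of up to 27.9 UPM (3 counts). *Cthrc1* was at 1135 in early and 236 in late cells, and at 3 UMIs (27.9 UPM) in contralateral cells. Early cells therefore held 4.80 times the *Cthrc1* and 2.53 times the *Tnc* of late cells, but 1.44 times the *Postn*.

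At equal depth the 3 messages were found together mainly in early cells. After each barcode was thinned to 5000 UMIs, all 3 genes were detected in 116 of 239 early cells (48.5%) and in 17 of 185 late cells (9.19%). *Postn* and *Cthrc1* without *Tnc* were detected in 103 early (43.1%) and 60 late cells (32.4%), and *Postn* alone in 13 early (5.44%) and 86 late cells (46.5%). Of the 7 contralateral cells deep enough, 6 held *Postn* alone and 1 held *Postn* and *Cthrc1*. The thinning left out 3, 133 and 15 shallower cells. *Tnc* was detected in 51.5% of early activated fibroblasts (44.9 to 58.0%) and 20.5% of late ones (15.0 to 27.1%), and without thinning in 59.95% and 37.0%. Since the rule used these genes, the counts describe how it was met: in the contralateral library the 10 cells are *Postn*-bearing fibroblasts without detected *Tnc*, and the name of an activated state rests there on *Postn*.

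Those 10 contralateral cells differed from the others in further ways. Their *Col1a1* level was 8527 UPM (27697 in early and 15400 in late activated fibroblasts), below the 19660 of other contralateral fibroblasts. Their *Gsn* level was 7968, against 401 in early and 3618 in late cells. Pericyte markers summed to 1862 UPM in them, of which *Rgs5* made 1732, against 132 in other contralateral fibroblasts, and 1 of the 10 exceeded 1% of UMIs for pericyte markers. Erythroid markers exceeded 1% in 3 of the 10. Their part in the levels of these few cells was not tested, and comparisons below use the early and late libraries.

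The 3 genes were also found at low levels in barcodes of other cell types. In macrophage-rich barcodes, which should lack *Postn*, it was at 2.06, 70.1 and 33.5 UPM in the contralateral, early and late libraries (225, 1520 and 817 barcodes, median depth 8387, 13901 and 14837 UMIs). In T or B cell barcodes it was at 0.689, 68.3 and 51.4 (356, 99 and 333 barcodes, median depth 3399.5, 5577 and 6426 UMIs). The 0.2% limit for the 3 genes was passed by 17 of the 1520 early macrophage-rich barcodes (1.12%) and 1 of the 99 early T or B cell barcodes (1.01%), and by none in the other libraries. Whether these UMIs came from free RNA or from doublets was not tested.

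Beyond the genes of the rule, activated fibroblasts held more message for collagens V, VI, VIII and XII and for a set of matrix and growth factor genes than other fibroblasts of the same library. The 20 leading genes were those with the highest ratio of activated over other fibroblasts, taken as the smaller of the early and late ratios, among genes at 100 or more UPM in activated fibroblasts of both libraries. Since they were chosen by this contrast, their ratios describe the cells and were not tested. Genes counted as measured reached 20 UPM in activated or other fibroblasts of each of the 2 libraries. Of these 5214 genes 1.05% were at least 1.5 times higher in activated fibroblasts in both and 1.29% at least 1.5 times lower.

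Collagens led the list by pooled UMIs, though *Col8a1*, *Col5a3* and *Col6a2* left it when levels were a mean over cells. *Col8a1* also left it without the upper limit on genes, an alternative chosen after the data were seen. *Col8a1*, a chain of the short-chain collagen VIII of vessel walls, was at 101 UPM in early and 119.8 in late activated fibroblasts, against 25.7 and 49.3 in other fibroblasts, a ratio of 3.91 (exact 95% interval 3.09 to 5.01) in the early and 2.43 (2.22 to 2.66) in the late library. *Col12a1*, which encodes a collagen that sits on the surface of collagen I fibrils, was at 366 and 124 against 135 and 56.6 (ratios 2.72 and 2.19). The 3 chains of collagen V, which start and limit the diameter of collagen I fibrils, were all in the list. *Col5a1* was at 1788 and 943 against 946 and 576 (1.89 and 1.64), *Col5a2* at 2046 and 1232 against 1156 and 709 (1.77 and 1.74), and *Col5a3* at 559 and 316 against 295 and 151 (1.90 and 2.09). Of the chains of collagen VI, a beaded microfibril around cells, *Col6a3* was at 1165 and 767 against 628 and 466 (1.86 and 1.65) and *Col6a2* at 926 and 836 against 569 and 559 (1.63 and 1.497).

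Among the other matrix genes, *Aspn* encodes asporin, a small leucine-rich protein that binds collagen and TGF-beta. It was at 1037 UPM in early and 732 in late activated fibroblasts, against 231 and 335 in other fibroblasts (ratios 4.49 and 2.19). *Thbs2*, the matricellular thrombospondin 2, was at 463 and 268 against 146 and 174 (3.17 and 1.54). *Ccn3*, a matricellular regulator, was at 213 and 298 against 83.4 and 144 (2.55 and 2.07), and *Matn2*, which encodes the adaptor protein matrilin 2, at 156 and 172.5 against 94.8 and 79.4 (1.65 and 2.17). All 4 were higher in activated fibroblasts of both libraries, but *Ccn3* and *Matn2* were lower or nearly level in early against late cells.

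A pair of heparin-binding growth factors was in the list. *Ptn* (pleiotrophin) was at 899 and 108 UPM in early and late activated fibroblasts, against 300.1 and 66.5 in other fibroblasts (3.00 and 1.62). *Mdk* (midkine) was at 207 and 152 against 84.8 and 80.0 (2.44 and 1.90). *Ptn* thus differed far more between the libraries (8.34 times) than between the classes.

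Several imprinted genes were among the rest of the list. *Meg3* and *Rian*, noncoding RNAs of the imprinted Dlk1 region, were at 2158 and 1279 against 1198 and 797 (1.80 and 1.61) and at 527 and 345 against 328 and 234 (1.61 and 1.48). *Plagl1*, an imprinted zinc finger factor, had ratios of 1.97 and 2.04, *Plk2*, a kinase of the polo-like family, of 1.92 and 2.22, and *Itm2a*, a membrane protein gene, of 1.55 and 2.25. *C1qtnf6* (1.47 and 1.70) and *Basp1* (1.54 and 1.49) closed the list. After thinning to 5000 UMIs, each of the 20 was detected in a larger share of activated than of other fibroblasts in both libraries, for example *Col12a1* in 64.4% against 24.5% of early and 29.7% against 16.5% of late cells. Since the 20 were chosen by their levels in these same cells, that direction was largely set by the choice and is no separate check. For *Col8a1* the early shares were 20.5% (15.6 to 26.2%) and 11.2% (5.74 to 19.2%), intervals that overlap.

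**Figure D2:**
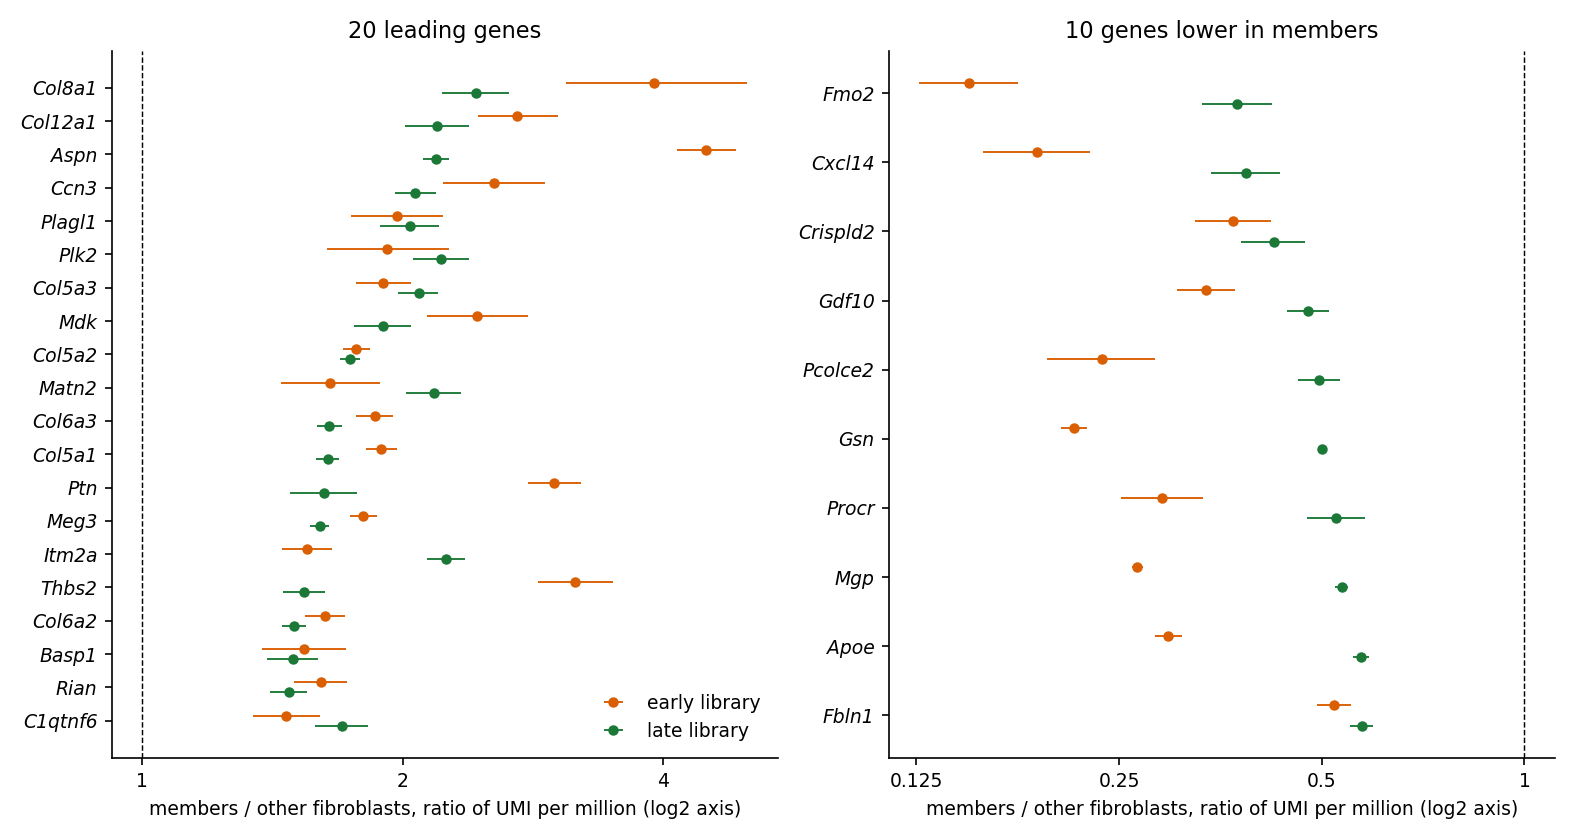
Ratio of UMI-per-million in activated fibroblasts ("members") over other fibroblasts (log2 axis) for the 20 leading genes on the left and the 10 genes lower in activated fibroblasts on the right, in the early (orange) and late (green) library, with exact 95% intervals for counting error as bars. *Aspn*, *Col8a1*, *Thbs2* and *Ptn* stand farthest right in the early library at 4.49, 3.91, 3.17 and 3.00, and *Fmo2* farthest left in both at 0.1498 and 0.374.

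Genes of quiescent fibroblasts were lower in activated fibroblasts. Of the 16 genes of that list 15 were measured, and 9 of these were at least 1.5 times lower in activated fibroblasts in both, while 0 were higher. *Gsn*, which encodes the actin-severing protein gelsolin, was at 401 UPM in early and 3618 in late activated fibroblasts against 1869.7 and 7223 in other fibroblasts. *Fmo2*, a flavin monooxygenase gene, was at 26.2 and 51.0 against 175 and 136, a level 6.68 and 2.67 times lower. *Gdf10*, a ligand of the TGF-beta family, was at 99.9 and 143 against 297 and 299. *Inmt*, a methyltransferase gene, was at 1 UMI (0.136 UPM) in all early activated fibroblasts and at 3.81 in late ones, against 42.7 and 65.0 in other fibroblasts. *Hsd11b1*, which activates glucocorticoids, was at 6.80 and 12.7 against 66.4 and 54.5.

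The other genes of the 10 lowest were *Cxcl14* (5.30 and 2.60 times lower in activated fibroblasts), *Pcolce2*, an enhancer of procollagen processing (4.25 and 2.02), *Mgp*, an inhibitor of calcification (3.76 and 1.87), *Procr*, the protein C receptor (3.45 and 1.90), *Apoe* (3.38 and 1.75), *Crispld2* (2.71 and 2.36) and *Fbln1*, a fibulin (1.92 and 1.75). Macrophages express *Apoe* as well, and the macrophage markers summed to 340 UPM in early activated fibroblasts against 459 in other early fibroblasts, and to 575 against 399.6 in the late library. Their part in the difference was not tested.

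Few genes for folding and cross-linking collagen were at least 1.5 times higher in both libraries, as were 1.05% of all measured genes. Counts of 0 in lists this short do not differ from that share. In the list of collagen folding and processing 17 of 18 genes were measured, and 1 was at least 1.5 times higher in both libraries: *P4ha3*, a subunit of prolyl 4-hydroxylase, at 73.0 and 31.6 against 27.4 and 14.1 UPM (2.67 and 2.24). *Serpinh1*, the collagen chaperone HSP47, was at 2561 and 1848 against 1905 and 1557 (1.34 and 1.19). Of 4 measured lysyl oxidases, enzymes that cross-link collagen, 0 reached that ratio in both libraries, and *Loxl2* came nearest (1.89 and 1.38). None of 16 endoplasmic reticulum chaperones did so. Median log2 ratios (early and late) were 0.35 and 0.27 for the folding list and 0.43 and 0.25 for the lysyl oxidases. They were −0.05 and 0.01 for the chaperones, and 0.04 and −0.03 for all measured genes. Of 6 measured fibrillar collagens the 3 chains of collagen V did, and *Col1a1* itself had ratios of 1.43 and 1.59.

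Among 22 measured matrix glycoproteins 3 were at least 1.5 times higher in both libraries: *Thbs2*, *Ccn4*, a target of Wnt signalling (168 and 72.0 against 76.4 and 37.1), and *Fbn2*, which encodes fibrillin 2 of immature microfibrils (158 and 72.5 against 84.1 and 29.6). *Tnn*, which encodes tenascin W, lay under the level needed and was singled out after its values were seen: it was at 50.7 and 13.0 UPM in activated fibroblasts against 5.67 and 1.86 in other fibroblasts. Of 18 measured proteases and inhibitors *Adam12*, a metalloprotease (176 and 48.2 against 76.4 and 20.4), and *Fap*, the fibroblast activation protein, were higher and *Timp3*, an inhibitor bound to the matrix, was lower (302 and 265 against 476 and 512). Of 13 proteoglycan genes *Aspn* was higher and *Podn* lower.

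In the signalling lists few genes differed by 1.5 times in both libraries, and some lists were lower in the early library alone. Of all measured genes 1.05% were higher and 1.29% lower by that ratio in both. Counts at or near 0 in lists of this size therefore do not set them apart from other genes. Chemokine and cytokine genes summed to 10887 UPM in early activated against 15500.2 in other early fibroblasts, with a median log2 ratio of −0.67, and to 16678 against 16799.5 (−0.02) in the late library. The *Pi16* adventitial genes had median log2 ratios of −0.70 (early) and 0.02 (late). In the list of growth factor axes *Ptn* and *Mdk* alone of 18 measured genes were at least 1.5 times higher in both libraries. Of 20 measured genes of the TGF-beta pathway 0 were at least 1.5 times higher in both libraries and 1, *Gdf10*, was lower. The receptor *Tgfbr2* was at 280.1 and 502 UPM against 272 and 512. None of 9 measured Wnt modulators and none of 14 measured transcription factors linked to fibroblast activation passed the ratio in either direction. Of 15 chemokine and cytokine genes *Cxcl14* alone was lower in both libraries, and *Cxcl1*, a neutrophil attractant, was at 3217 and 5227 against 3734 and 5114. None of 18 measured actin and contraction genes, 11 genes of *Pi16* adventitial fibroblasts, 10 glycolysis genes or 15 dissociation and heat shock genes passed it.

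In the early and late libraries *Col1a1*, other fibrillar collagens, *Aspn* and quiescent genes moved step by step with the share of the 3 genes. The bins widened along the share, so whether a level jumped at 0.2% was not tested, and *Col1a1* itself was a gene of the rule. Some genes did not move in steps. In the early library *Col8a1* was at 144 UPM from 0.4 to 0.8% and 103 at 0.8% or more, and *Plk2* at 160 and 83.5. *Ccn3* was highest there from 0.2 to 0.4%, at 226. In the early library *Col1a1* was at 4729 UPM in the 25 fibroblasts without any of the 3 messages, 17089.6 in 65 above 0 and up to 0.1%, 22970.0 in 85 from 0.1 to 0.2%, 25235 in 151 from 0.2 to 0.4%, 27742 in 151 from 0.4 to 0.8% and 32208 in 70 at 0.8% or more. *Aspn* went from 63.3 to 1970.1 over the same bins, the other fibrillar collagens from 664 to 5369 and the quiescent genes from 19866 down to 2672. In the late library *Col1a1* went from 6908 in 141 fibroblasts without the messages to 17331 in 21 from 0.4 to 0.8%, and the quiescent genes from 26457 down to 8663. Across the limit late *Col1a1* was at 10618 from 0.1 to 0.2% and at 14425.5 from 0.2 to 0.4%. The contralateral library ran the other way for *Col1a1*, with 20186 in 1455 fibroblasts without the messages and 9302 in 27 from 0.1 to 0.2%. The cells of a library share its depth and free RNA, the lowest early bin held a median of 728 UMIs per barcode, and a level in UPM falls by construction when other genes take more of the total.

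**Figure D3:**
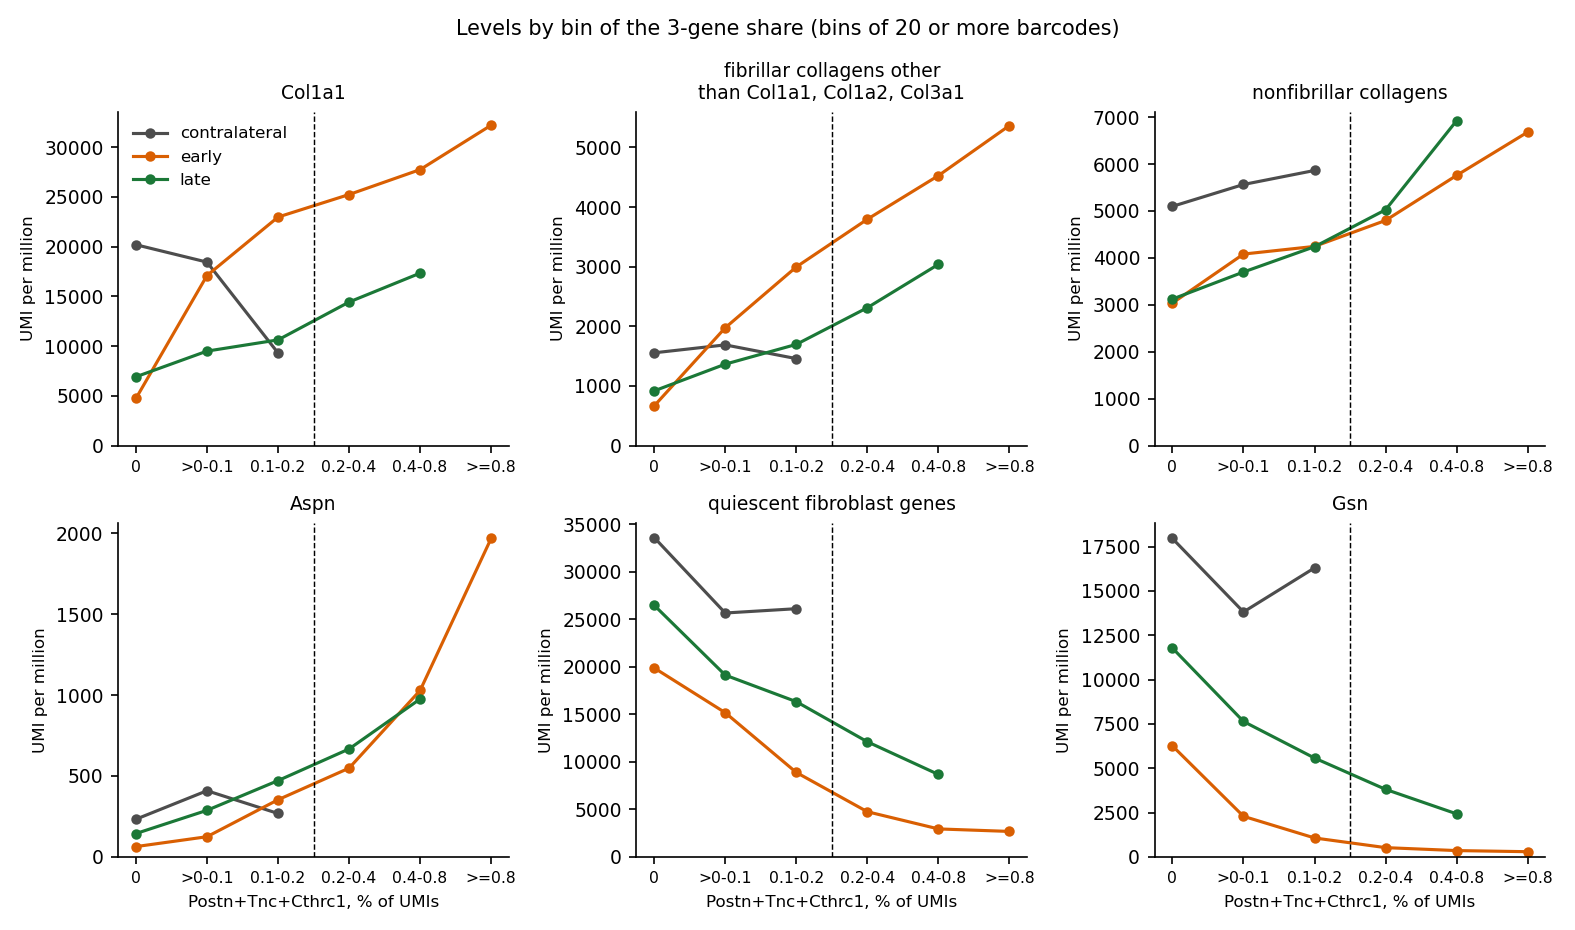
UMI-per-million of *Col1a1*, of the fibrillar collagens outside the rule, of nonfibrillar collagens, *Aspn*, quiescent fibroblast genes and *Gsn*, in fibroblasts binned by the summed share of *Postn*, *Tnc* and *Cthrc1*, for bins of 20 or more barcodes in each single-cell library. The dashed line is the 0.2% limit; in the early library *Col1a1* climbs from 4729 to 32208 and the quiescent genes drop from 19866 to 2672 across the bins.

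Hemoglobin genes, *Dlk1*, *Spp1* and *Ptn* were among the genes higher in early than in late activated fibroblasts, and *Gsn*, *Pi16* and class II genes among those higher in late ones. Among genes at 100 or more UPM in the higher library, those highest in early over late cells were 3 hemoglobin genes and *Dlk1*, *Spp1*, *Ptn*, *Nt5dc2*, *S100a9*, *H19* and *Tpm2*. *Dlk1*, which encodes a Notch-related membrane protein of immature mesenchyme, was at 172.7 UPM in early and 3.12 (18 UMIs) in late cells. *H19*, an imprinted noncoding RNA, was at 638 and 97.1, and in both libraries it was above other fibroblasts (3.99 and 4.31 times). *Spp1* (osteopontin) was at 345 and 41.1, and *Tpm2*, a tropomyosin, at 292 and 57.2.

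Several of these genes are abundant in other cells of the early library. *Spp1* was at 957 UPM in other early fibroblasts and at 3288 in macrophage-rich barcodes. *S100a9*, a neutrophil gene, was at 144 in early activated fibroblasts, where neutrophil markers summed to 272 against 73.2 in late ones. Erythroid markers summed to 1209 and 1.73 UPM in early and late activated fibroblasts and to 1731 and 2.61 in other fibroblasts, and in 1 early cell they held 64.7% of the UMIs. The part of free RNA in these genes was not tested. For *Dlk1* and *H19* activated fibroblasts held 66.7% and 66.3% of all UMIs of the kept early barcodes.

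On the late side *Gsn* was 9.02 times higher in late than in early activated fibroblasts, *Fbln7*, a fibulin, 7.67 times (197 against 25.7), *Pcsk6*, a proprotein convertase, 7.36 times and *Pi16*, a marker of adventitial fibroblasts, 6.17 times (1160 against 188). *Edn1* (endothelin 1) and *Pla1a* were 6.59 and 6.98 times higher. The other 4 were genes of class II antigen presentation, *Cd74* (277 against 39.0), *H2-Aa*, *H2-Eb1* and *H2-Ab1*, which macrophages and B cells express at high levels. In late activated fibroblasts *Cd74* was 1.82 times its level in other late fibroblasts, 2 of 200 cells exceeded 1% of UMIs for macrophage markers, and the part of such RNA was not tested.

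**Figure D4:**
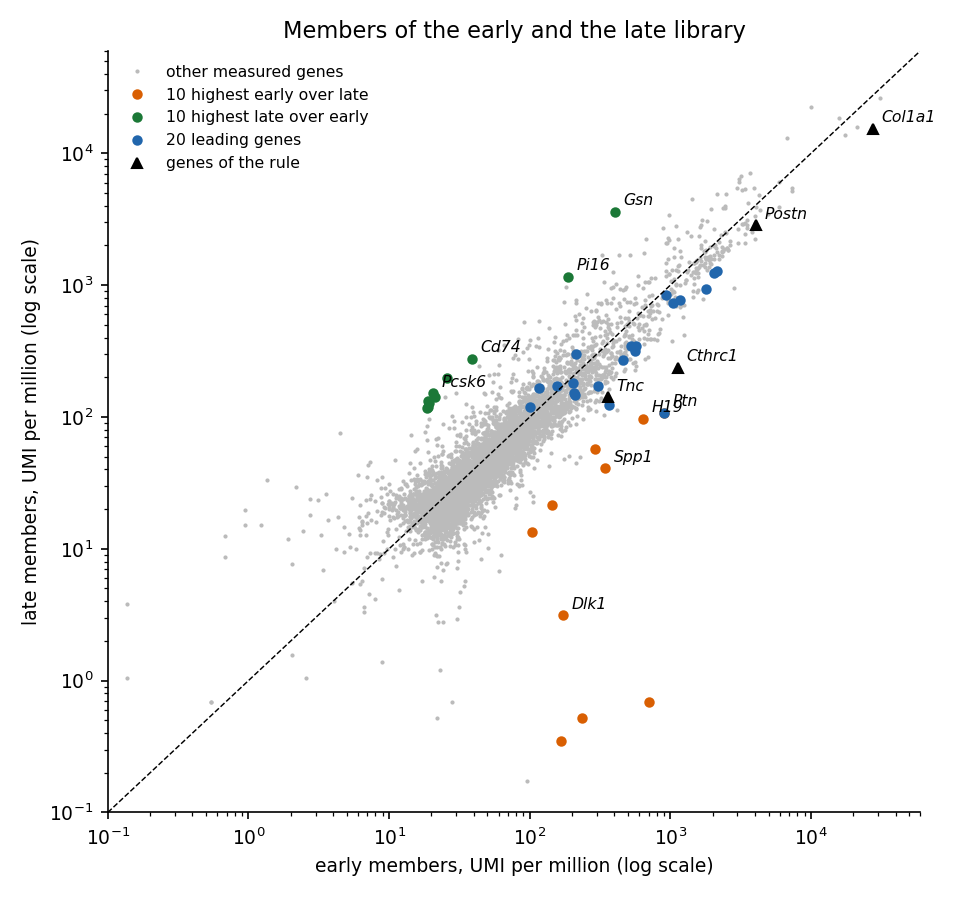
Level of each measured gene in early (x axis) and late (y axis) activated fibroblasts, in UMI-per-million on log scales; the dashed line marks equal levels. *Dlk1*, *Spp1*, *Ptn* and *H19* lie below the line, *Gsn*, *Pi16*, *Pcsk6* and *Cd74* above it, and *Postn* (4081 and 2838) lies close to it.

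Cell division messages were more abundant in early than in late activated fibroblasts. At 5000 UMIs *Mki67* or *Top2a*, genes of dividing cells, were detected in 26 of 239 early activated fibroblasts (10.9%, 7.23 to 15.5%) and in 5 of 98 other early fibroblasts (5.10%, 1.68 to 11.5%), intervals that overlap. In the late library the shares were 2.70% (0.883 to 6.19%) and 2.17% (1.48 to 3.06%). The 19 genes of the cell division list summed to 1152 and 576 UPM in early and late activated fibroblasts, to 849 and 528 in other fibroblasts, to 753 and 568 in Thbs4-type fibroblasts, and to 2131 and 1300.3 in the barcodes over the gene limit.

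Thbs4-type fibroblasts, set apart by 4 genes, resembled activated fibroblasts in the genes of the rule. In the early library they held more *Postn* (6696 against 4081 UPM), *Tnc* (983 against 358) and *Cthrc1* (1734 against 1135) than activated fibroblasts, and in the late library less *Postn* (1938 against 2838) and more *Tnc* (229 against 142) and *Cthrc1* (344 against 236). *Col8a1* was 419 and 565 in them against 101 and 119.8, and *Aspn* 2787 and 1987 against 1037 and 732. *Ptn* was lower in them in both libraries (761 and 52.0 against 899 and 108). Of the 20 leading genes 15 were higher in Thbs4-type than in activated fibroblasts in the early library and 10 in the late library, so most of the early leading genes were not highest in activated fibroblasts. The division between these classes was made by the rule.

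Messages of other cell types in activated fibroblasts ranged from near 0 to over 0.2% of UMIs. Erythroid markers were the most abundant in the contralateral and early cells, at 2355 and 1209 UPM, but were at 1.73 in the late cells. Macrophage markers, the most abundant in the late cells, summed to 55.9, 339.8 and 575 in the contralateral, early and late cells. Pericyte markers summed to 1862, 77.9 and 95.4, neutrophil markers to 55.9, 272 and 73.2, and Schwann cell markers to 363, 149.8 and 219.5. Endothelial markers summed to 18.6, 20.8 and 21.7 UPM in the contralateral, early and late cells, with *Pecam1*, *Cdh5* and *Vwf* at 0 in the contralateral ones. T cell markers summed to 0, 8.84 and 8.67. At 1% or more of UMIs, macrophage markers were found in 0, 4 and 2 cells, neutrophil markers in 0, 4 and 0, and erythroid markers in 3, 9 and 0. The collagens of these cells were set by the rule and do not check the label.

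Among kept barcodes, much of the message for the 3 genes lay in these cells in the early library and less in the late one. The rule chose the cells by *Postn*, *Tnc*, *Cthrc1* and *Col1a1*, so large shares were in part built in. Left out were the 456 early and 101 late barcodes over the gene limit that met every other condition. Activated fibroblasts held 55.6% of all *Postn* UMIs of the kept early barcodes, 45.4% of *Tnc*, 62.3% of *Cthrc1* and 61.8% of *Col1a1*. In the late library they held 24.0%, 17.5%, 19.9% and 15.7%, while other fibroblasts held 34.1% of *Postn* and Thbs4-type fibroblasts 42.5% of *Tnc* and 43.4% of *Cthrc1*. A bulk level of these genes is thus the sum over several classes, and bulk RNA cannot tell more cells of a type from more RNA per cell.

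The bulk vessels asked whether genes of the rule, and genes higher in activated than in other fibroblasts, differed between AVFs and contralateral veins in other mice. Of the 20 leading genes 15 (early) and 10 (late) were higher still in Thbs4-type fibroblasts, so a bulk change in them is not particular to activated fibroblasts. Levels are in counts-per-million (CPM), and a gene was called when its adjusted *p* was under 0.01 (edgeR quasi-likelihood test, Benjamini–Hochberg over 12673 genes) and its level differed at least 2-fold, a log2 fold change of 1 in either direction. The labels give single vessels and say nothing of litters or batches, so *p* values measure the spread between these vessels. Tested against contralateral veins, 6.17% of genes were called higher in early, 2.74% in mid and 2.49% in the late AVFs, and 6.45%, 3.31% and 2.85% lower. Late against early, 0.726% were called higher and 2.28% lower. The median log2 fold change of all genes was −0.01, −0.10 and −0.09 in the early, mid and late comparisons.

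*Postn* ranged from 237.5 to 718 CPM in contralateral veins (median 581) and from 253 to 3932 in early AVFs (median 1729). Mid AVFs held 2888, 2505, 3598, 4284 and 2714 CPM and late AVFs 1624, 2164, 2130.0, 1675 and 1385. Every mid and late AVF lay above every contralateral vein, while early replicates 7 and 6, at 253 and 409, lay inside the contralateral range. On the log2 scale *Postn* rose by 1.86 in early (SE 0.42, adjusted *p* = 0.00189), 2.62 in mid (SE 0.46, 0.000321) and 1.78 in the late AVFs (SE 0.45, 0.00999). The late call lay just under the threshold, and 19 of 25 fits that left out 1 vessel, as well as the fit with sex as a term, did not make it. Late did not differ from early beyond the spread (−0.08, adjusted *p* = 0.988).

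*Tnc* ranged from 34.7 to 214 CPM in contralateral veins (median 99.7) and from 159 to 644 in early AVFs (median 381). Mid AVFs held 581, 525, 779, 1226 and 319 CPM and late AVFs 335, 491, 378, 189.9 and 233. Contralateral and mid values did not overlap, while 1 late AVF lay inside the contralateral range. *Tnc* rose in all 3 comparisons, by 2.04 (SE 0.41, adjusted *p* = 0.000623), 2.89 (SE 0.45, 7.94e-05) and 1.81 (SE 0.44, 0.00706), and the late call was lost in 8 of 25 fits without 1 vessel.

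*Cthrc1* ranged from 0 to 73.0 CPM in contralateral veins (median 15.0) and from 64.4 to 1186 in early AVFs (median 604). Mid AVFs held 539, 503, 671, 628 and 406 CPM and late AVFs 201, 314, 253.5, 178 and 189. Every mid and late AVF lay above every contralateral vein. *Cthrc1* rose in early AVFs by 4.59 (SE 0.84, adjusted *p* = 0.000211) and in mid AVFs by 4.48 (SE 0.87, 0.000813), while the late value of 3.21 (SE 0.83) missed the threshold at 0.0108, which it passed in 4 of 25 fits without 1 vessel. Late against early its log2 fold change was −1.38 (adjusted *p* = 0.489).

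*Col1a1* did not pass the test. It ranged from 441 to 4358 CPM in contralateral veins (median 2205) and from 246 to 5729 in early AVFs (median 3513). Mid AVFs held 4269, 6969, 8322, 8698 and 6003 CPM and late AVFs 6748, 11690, 5328, 3117 and 4498. The log2 fold changes were 0.18, 1.41 and 1.28 (adjusted *p* = 0.831, 0.0833 and 0.124), and the early one turned negative without contralateral replicate 35 (−0.08), early replicate 4 (−0.03) or early replicate 10 (−0.0019).

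**Figure D5:**
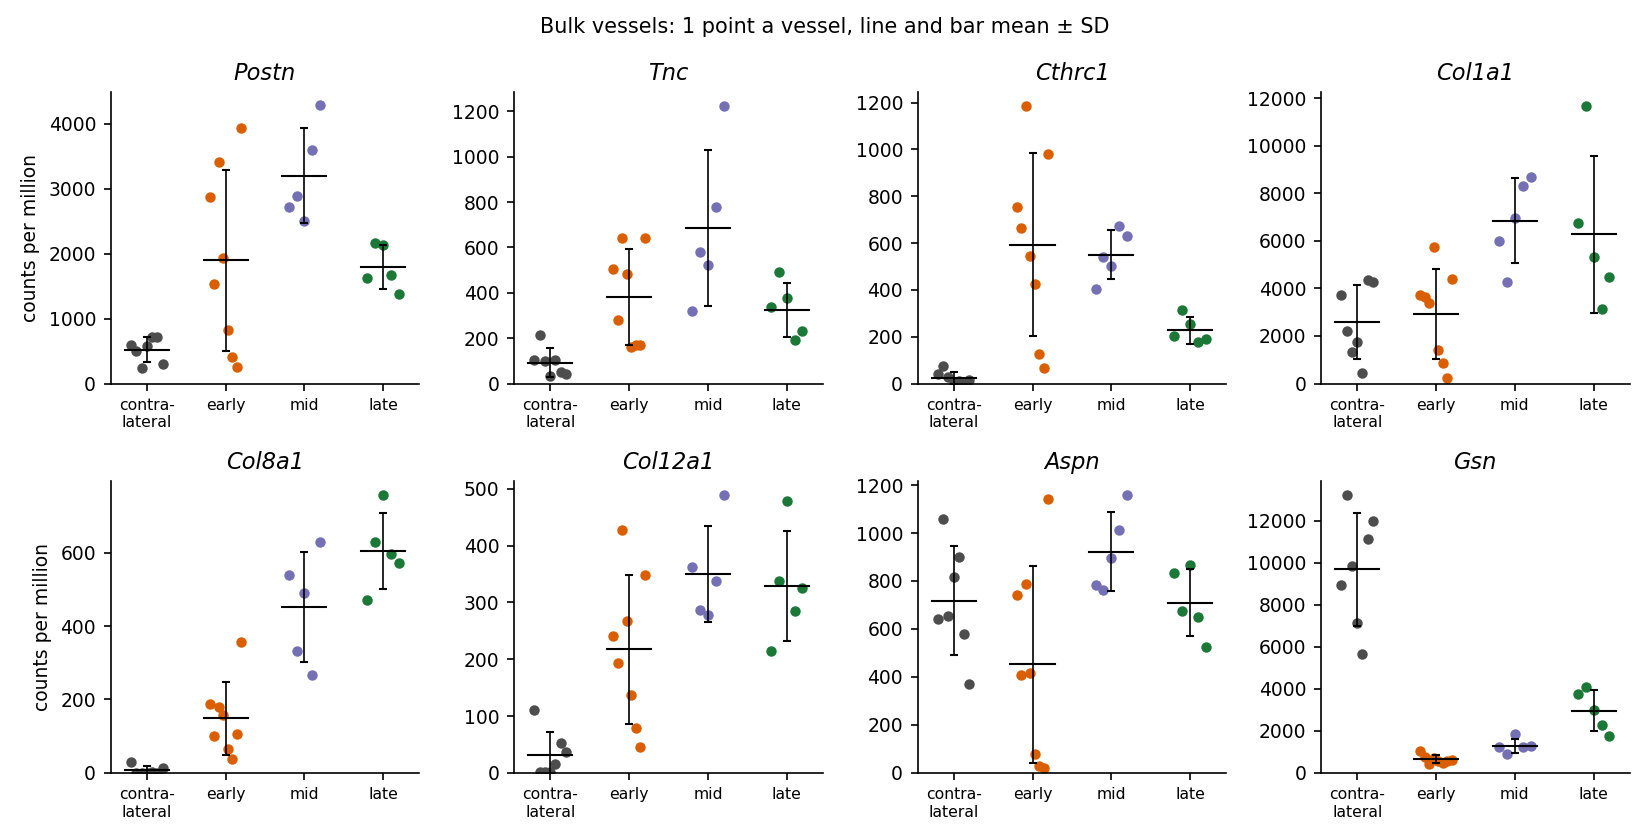
Counts-per-million of 8 genes in the bulk vessels, 1 point per vessel with the mean as a line and the SD as a bar (7 contralateral, 8 early, 5 mid and 5 late). *Postn*, *Tnc*, *Cthrc1*, *Col8a1* and *Col12a1* lie higher in mid AVFs than in contralateral veins in every vessel, *Gsn* lies lower in every AVF than in every contralateral vein, and *Aspn* and *Col1a1* overlap the contralateral range in each AVF group.

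Of the 20 leading genes, all of which were tested, 4 rose in early, 6 in mid and 3 in the late AVFs, and 0 fell, beside the background shares of 6.17%, 2.74% and 2.49% higher. Their median log2 fold change was 1.09, 1.52 and 1.13. Of the 20, 10, 14 and 10 were higher at an unadjusted edgeR *p* under 0.05, and 2, 0 and 0 were lower. The share of all genes past this looser cut was not counted, so these counts have no background. In early AVFs *Ccn3* (−1.12) and *Mdk* (−1.07) had negative log2 fold changes but were not called. Late against early 0 of 20 were called by edgeR in either direction (unadjusted *p* under 0.05 for 4 higher and 1 lower), and DESeq2 called 1 higher. Groups did not overlap in the direction of a rise or fall for 1, 12 and 7 of the 20 in the 3 comparisons with contralateral veins. How many of all tested genes separated in this way was not counted, so these counts have no background.

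Collagens made up most of the calls. Activated fibroblasts held 33.5% of *Col8a1* and 58% of *Col12a1* UMIs in the kept early barcodes, and 8.03% and 12.05% in the late ones. Thbs4-type fibroblasts held 34.9% and 21.5% (early) and 56.7% and 44.9% (late). *Col8a1* was at 0 to 29.5 CPM in contralateral veins (median 0.394) and 38.5 to 358 in early AVFs (median 131.5). Mid AVFs held 331, 489.8, 268, 630.5 and 539.9 CPM and late AVFs 470.3, 628.5, 757, 597 and 571.5, all above every contralateral vein. It rose by 4.52 (SE 0.95, adjusted *p* = 0.000994), 6.12 (SE 1.06, 0.000258) and 6.55 (SE 1.08, 0.000191). *Col12a1*, at 0.562 to 110.0 CPM in contralateral veins, held 287, 278, 338, 489 and 362 in mid and 214, 338, 479, 286 and 326 in late AVFs and rose by 3.50 in mid (adjusted *p* = 0.00668) and 3.41 in late AVFs (0.00884), while the early value of 2.81 (0.0103) missed the threshold.

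*Col5a2* held 1209, 1388, 1464, 1626 and 1076 CPM in mid and 969, 1329, 1178, 1097 and 999 in late AVFs, against 217 to 655 in contralateral veins, and rose by 1.64 (adjusted *p* = 0.000989) and 1.36 (0.006). *Col5a3* rose in early (2.55, adjusted *p* = 0.00988) and mid AVFs (3.03, 0.00903), *Col5a1* in mid (1.98, 0.00452) and *Col6a3* in mid AVFs (1.41, 0.00983). Every mid value of these 4 genes, and every late value of *Col5a2*, lay above every contralateral vein. The calls of *Col5a3* were lost in 21 (early) and 17 (mid) of 25 fits without 1 vessel, those of *Col12a1* in 7 (mid) and 17 (late), that of *Col6a3* in 16, of *Col5a1* in 3 and of *Col5a2* in 7 (late). The sexes were not balanced over the groups, and with sex as a term *Col5a3* (early and mid), *Col6a3* (mid) and *Col12a1* (late) were no longer called.

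*Basp1* (3.56, adjusted *p* = 0.000668) and *Rian* (2.43, 0.00578) rose in early AVFs, from a median of 1.29 to 32.6 CPM and from 7.88 to 67.3 CPM. The call of *Rian* was lost in 4 of 25 fits without 1 vessel and with sex as a term. *Basp1* message lay mostly in other cells: activated fibroblasts held 4.99% of its UMIs in the kept early barcodes, and barcodes outside the collagen-rich classes 92.5%. *Aspn*, the leading gene with the highest early single-cell ratio, was not called in bulk, with log2 fold changes of −0.66, 0.36 and −0.02. *Ptn* (0.86, 1.39 and 0.72) and *Thbs2* (0.19, 1.30 and 1.15) were not called either.

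The genes lower in activated fibroblasts fell in part. Of the 10, 6 fell and 2 rose at the early time, 4 fell at the mid time, and 3 fell and 1 rose at the late time, where 6.45%, 3.31% and 2.85% of all genes were called lower. *Gsn* ranged from 5649 to 13230 CPM in contralateral veins, 422 to 1026 in early, 893.5 to 1826 in mid and 1728 to 4079 in late AVFs, with no overlap between AVFs and veins. On the log2 scale it fell by 3.93, 2.92 and 1.71 (adjusted *p* = 2.05e-11, 1.49e-07 and 0.00013) and rose from early to late AVFs by 2.21 (1.57e-05). *Fmo2* fell by 3.66, 2.66 and 2.10 (7.21e-10, 2.86e-06 and 6.66e-05). *Mgp* rose in early (1.92, adjusted *p* = 0.000377) and late AVFs (1.70, 0.00519), and *Apoe* in early AVFs (1.36, 0.000521). Among kept barcodes of the early library 74.9% of *Mgp* and 98.2% of *Apoe* UMIs lay outside the collagen-rich classes.

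In the quiescent list 13 of its 16 genes fell and 1 rose in early AVFs, 8 fell in mid and 4 in late AVFs, and 7 rose from early to late AVFs, when 0.726% of all genes did. Its median log2 fold change was −2.41, −1.51, −0.83 and 1.63 (late against early). Of 7 fibrillar collagens 2, 4 and 2 rose in early, mid and late AVFs, and of 12 tested nonfibrillar collagens 1, 4 and 5. Of 17 folding and processing genes *P4ha3* rose in all 3 comparisons (6.60, 7.15 and 6.86, adjusted *p* = 1.52e-05, 2.59e-05 and 4.62e-05), and *Adam12* did so among the proteases (5.31, 5.15 and 3.78, 0.000153, 0.000618 and 0.00697). Of the 19 cell division genes 10 rose in early AVFs and 1 each at the mid and late times.

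The genes that set early and late activated fibroblasts apart were tested late against early in bulk. Of the 10 higher in early cells, 2 fell from early to late AVFs, both hemoglobin genes (*Hbb-bs* and *Hba-a1*), against a background of 2.28%. *Dlk1* was at 0 to 66.1 CPM in early AVFs, with 0 in replicates 5, 6 and 7, which overlaps the 0 to 0.621 of contralateral veins, and rose over contralateral veins in early (6.54, adjusted *p* = 0.00515) and mid AVFs (7.32, 0.0061). *H19* rose in all 3 comparisons (8.63, 8.70 and 7.09), from a median of 0.0690 CPM in contralateral veins to 129, 160.0 and 17.4 in early, mid and late AVFs. Neither differed between late and early AVFs beyond the spread (adjusted *p* = 0.859 and adjusted *p* = 0.544). Of the 10 higher in late cells, *Gsn* and *Fbln7* (3.37, adjusted *p* = 0.000364) rose from early to late AVFs, against a background of 0.726%. The 4 class II genes had log2 fold changes of 0.63 to 1.02 there and were not called.

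Other cell types moved with the same groups of vessels. Macrophage markers summed to 2609 to 10330 CPM over contralateral veins, to 14680 to 45130 over early AVFs, 14110 to 19960 in mid ones and 10300 to 19820 in late ones, and of the 12 markers 10 rose at the early, 2 at the mid and 1 at the late time. Neutrophil markers summed to 1.06 to 248 CPM over contralateral veins and to 309 to 4547 over early AVFs (6 of 8 rose). Endothelial markers summed to 2927 to 5814 CPM in contralateral veins and 445 to 957 over the 18 AVFs (7, 7 and 6 of 10 fell). Skeletal muscle markers, at 2.89 to 30.9 CPM over contralateral veins, summed to 8.53 to 4382 in early AVFs, 603 to 6232 in mid ones and 8.54 to 8466 in late ones (6 of 7 rose in each). No gene of these lists was at 0 in every vessel of a group, and their part in the results above was not tested.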

How the data were processed

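Bulk RNA sequencing covered 25 vessels and droplet single-cell sequencing (Chromium Single Cell 3′ v3) 3 libraries, each a pool of 10 vessels after red blood cell lysis and digestion. The authors deposited raw counts per gene for the bulk vessels and UMI counts per gene and barcode for the single cells. The submitters' processing notes name STAR and Cell Ranger without their roles, and the matrix header gives Cell Ranger 6.0.2.

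Counts were used as deposited. Single-cell UMIs were summed over the barcodes of a class and library and divided by their total. Bulk genes whose counts, scaled by DESeq2 size factors, averaged 100 or more were fitted over all 4 groups with edgeR 4.0.16 (R 4.3.3, TMM, quasi-likelihood F test), with DESeq2 1.42.0 as an alternative. The fit was tested on simulated data. Exact intervals came from scipy 1.17.1 and cover counting error only, because UMIs of 1 pool do not measure the spread between animals.

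Members and lists were chosen with earlier results of these data known. Genes were named by rule: the 18 genes that chose the cells, the 20 leading and 10 lower genes, the 10 highest in early over late cells and in late over early cells, and, of each of 29 lists, the 2 most abundant and the 2 with the largest ratio. Genes named beside these were chosen after their values were seen. Alternatives were another threshold, thinning, normalization, filter, tool, a sex term and leaving out each vessel.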

Additional observations from a re-analysis of the deposited data

Results flagged for a closer look

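Single vessels stood apart from the rest of their group for 4 leading genes, by a gap to the nearest vessel that was large against the range of the group. *Matn2* was at 0 CPM in contralateral replicate 632, while the other veins held 55.05 to 176.1, and at 45.0 CPM in early replicate 6, while the other early AVFs held 99.75 to 196.9. *Itm2a* was at 84.85 CPM in late replicate 24, against 233.2 to 290.1 in the others. *Basp1* was at 17.3 CPM in contralateral replicate 34, against 0.7496 to 3.622. *C1qtnf6* was at 12.7 CPM in early replicate 7, against 56.17 to 120.6, and at 109.9 CPM in mid replicate 14, against 92.17 to 96.87. Chance flags about 1 in 20 groups, so 4.8 of the 96 groups looked at would be expected and 6 were found. Of 66 genes looked at for a different response in male and female mice, in 3 comparisons, 0 passed an adjusted *p* under 0.05 (edgeR interaction term, smallest adjusted *p* = 0.516, for *C1qa* late). Over all genes tested 57 passed in the early, 3 in the mid and 4 in the late comparison.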

How the results depend on the processing

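The share of kept barcodes that were activated fibroblasts moved with the rule. At a limit of 0.1% in place of 0.2% it was 0.5855% in the contralateral, 9.615% in the early and 10.4% in the late library, and at 0.4% it was 0.0158%, 4.65% and 0.412%, so the early library was highest at 0.2% and 0.4% but not at 0.1%. Without the limit on *Thbs4* genes it was 9.19% (early) and 5.515% (late), and after thinning to 1000 UMIs 0.447% (contralateral), 7.62% (early) and 6.52% (late). Chosen after seeing the data, leaving out the upper limit on genes gave 14.8% (early) and 4.70% (late), and leaving out barcodes with 1% of another cell type's markers from both counts gave 0.3396%, 23.7% and 5.36%.

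Of the leading genes, 4 were called higher in early AVFs, and this count was 7 with DESeq2, 2 with a sex term, 8 at an adjusted *p* under 0.05, 7 without the 2 deepest libraries, early replicates 5 and 6 (chosen after seeing the data) and 0 when the leading genes were chosen by a mean over cells, a choice that shared 13 of 20 genes. The late count of 3 was 7 at an adjusted *p* under 0.05, and the late against early count of 0 was 1 with DESeq2 and 1 at an adjusted *p* under 0.05. Leaving out 1 vessel gave 2 to 7 in early (2 without contralateral replicates 31 or 35 or early 10, 7 without early 6 or 7), 2 to 8 in mid (2 without mid 13, 14 or 15), 1 to 3 in late (1 without contralateral 35, mid 13 or late 16, 17, 19 or 23) and 0 to 1 late against early. The log2 fold change of *Col1a1* in early AVFs ranged from −0.08 (−0.0817, without contralateral replicate 35) to 0.38, and that of *Postn* late against early from −0.24 to 0.20. With a sex term the calls of *Postn* and *Col12a1* in late, *Col5a3* in early and mid, *Rian* in early and *Col6a3* in mid AVFs were lost. The late call of *Cthrc1* was gained with DESeq2, with other filters and without the 2 deepest libraries. The causes were not tested.

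No paired analysis was possible because the groups share no replicate numbers. With 1 pool per condition, no single-cell difference has a replicate check, and low counts limit *Tnc* in the contralateral cells (0 UMIs) and *Dlk1* in the contralateral (0) and late cells (18).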
